A study of Mus musculus with 8 samples.

Results

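Leukocyte capture and firm adhesion were followed in mouse liver endothelial cells through 9 genes: Sele, Selp, Icam1, Icam2, Vcam1, Madcam1, Cd44, Alcam and Ceacam1. They were taken by symbol from a table of gene counts, through the Ensembl identifiers of its rows, and are 9 of the 52636 genes in it. All 9 were found, and all 9 passed the filter on low counts that left 15698 genes for testing. The cells came from liver, were grown in endothelial medium and were sorted before RNA preparation as live cells that lacked CD45 and carried CD31 and VE-cadherin. There were 4 groups of 2 libraries: WT without cytokines, WT with the inflammatory cytokines IL1B and TNFA, and dKO without and with the same cytokines. The labels do not expand dKO. The study's design text names inducible deletion of the transcription factor genes Erg and Fli1, alone or together, by 48 hours of 4-OHT (an active form of tamoxifen) and harvest after 7 days in culture, with cytokines present for 16 hours. That text puts 4-OHT in the medium of cultured cells, whereas the treatment protocol, which is the same for all 8 libraries and so covers WT too, puts it in mice. The labels do not state the driver of the recombinase, the age of the mice, or how many animals or cultures stand behind a group.

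Selectins are lectins that let leukocytes in flowing blood tether to and roll on the vessel wall. Rolling cells then stop when their integrins bind endothelial members of the immunoglobulin superfamily, among them ICAM1, ICAM2, VCAM1 and MADCAM1. Many of these genes are textbook targets of NF-κB, the factor that IL1B and TNFA activate, and ERG and FLI1 are ETS factors with high expression in endothelium. In liver, leukocytes also stop in sinusoids with little rolling, and CD44 on either cell can hold them there through hyaluronan.

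Of the 9 genes, 7 had a promoter in the RefSeq table for GRCm38.p6 (250 bases before to 50 bases after the annotated start), and those of the selectins, Icam1, Madcam1 and Cd44 are shown because these 5 genes rose with cytokines in WT cells. Each is written 5′ to 3′ on the strand of its gene. Capitals mark matches on either strand to a short κB form (GG, a purine, any 2 bases, 2 pyrimidines, CC), which was chosen after the sequences had been seen.
Sele: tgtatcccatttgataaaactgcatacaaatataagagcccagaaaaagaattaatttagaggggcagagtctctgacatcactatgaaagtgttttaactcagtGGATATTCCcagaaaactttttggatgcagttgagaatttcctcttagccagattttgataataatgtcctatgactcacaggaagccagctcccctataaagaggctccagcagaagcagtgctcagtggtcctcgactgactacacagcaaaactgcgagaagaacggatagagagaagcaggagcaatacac
Selp: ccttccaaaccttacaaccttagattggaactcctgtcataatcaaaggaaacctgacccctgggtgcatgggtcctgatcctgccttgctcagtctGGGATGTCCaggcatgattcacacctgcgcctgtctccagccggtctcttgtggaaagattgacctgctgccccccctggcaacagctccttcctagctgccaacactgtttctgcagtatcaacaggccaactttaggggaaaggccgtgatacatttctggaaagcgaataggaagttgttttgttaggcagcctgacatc
Icam1: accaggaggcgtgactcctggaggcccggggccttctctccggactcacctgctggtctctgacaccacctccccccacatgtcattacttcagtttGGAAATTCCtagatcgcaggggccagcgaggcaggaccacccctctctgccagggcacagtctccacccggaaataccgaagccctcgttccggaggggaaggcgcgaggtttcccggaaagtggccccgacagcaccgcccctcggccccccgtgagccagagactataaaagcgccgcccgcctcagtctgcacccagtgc
Madcam1: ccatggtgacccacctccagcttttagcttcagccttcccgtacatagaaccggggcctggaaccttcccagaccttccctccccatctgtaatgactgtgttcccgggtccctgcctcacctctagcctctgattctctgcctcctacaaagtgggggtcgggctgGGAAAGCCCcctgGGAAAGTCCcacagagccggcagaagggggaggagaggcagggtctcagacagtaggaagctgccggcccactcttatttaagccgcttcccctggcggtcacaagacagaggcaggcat
Cd44: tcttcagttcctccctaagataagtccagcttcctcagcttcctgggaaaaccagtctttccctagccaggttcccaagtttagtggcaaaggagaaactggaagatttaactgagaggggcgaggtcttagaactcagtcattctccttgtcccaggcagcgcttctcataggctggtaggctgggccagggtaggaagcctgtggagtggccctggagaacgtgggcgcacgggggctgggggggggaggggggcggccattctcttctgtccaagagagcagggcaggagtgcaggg
These windows are chr1:164047984-164048283 for Sele, chr1:164115014-164115313 for Selp, chr9:21015690-21015989 for Icam1, chr10:79664309-79664608 for Madcam1, all on the plus strand, and chr2:102901616-102901915 for Cd44 on the minus strand. Counted from the start, the short κB form lay at -145 to -137 in Sele, at -153 to -145 in Selp and Icam1, and at -83 to -75 and -70 to -62 in Madcam1. The RefSeq start used for Icam1 lies before the GENCODE start given below, so positions in that promoter depend on the annotation. Of the 7 members with a promoter, 5 had the short κB form, the fifth being Ceacam1, at -166 to -158 and -97 to -89. It was met in 26.6% of all 32851 promoters of the same length. As the form was chosen with these sequences seen, the 2 shares do not measure an excess in the members. The 10-base κB consensus was met in Madcam1 alone among them, in 2 places that overlap the short matches, and in 8.46% of all promoters. AGGAAG, a form of the ETS core, occurred on either strand in 5 of the 7, among them Sele at -65 to -60 and Cd44 in 3 places, and in 35.4% of all promoters, whereas CGGAAG, another ETS form, occurred in 0 of the 7 (16.9% of all). TGANTCA, the AP-1 form, was found in Sele and Selp (7.81% of all promoters). TATAAA was found in Sele at -49 to -44 and in Icam1 at 14 to 19, which is after the start (13.6% of all). These are matches of letters and say nothing of binding.

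Library totals ran from 23009062 to 26944030 counts. Levels are given as CPM, counts divided by the TMM-scaled size of the library, in the order replicate 1, replicate 2. With 2 libraries in each group, adjusted p-values come from edgeR's quasi-likelihood test over all 8 libraries with Benjamini-Hochberg adjustment over the 15698 genes, a gene is called when this is below 0.05, and the error given with a log2 change is its standard error. Erg was found at 196 and 186 CPM in untreated WT and at 208 and 201 with cytokines, and in dKO at 40.1 and 91.3 without and 34.7 and 90.2 with them. Fli1 stood at 161 and 177, then 91.5 and 96.4 CPM in WT, and at 21.9 and 62.5, then 12.4 and 35.2 CPM in dKO. Both targeted genes were lower in every dKO library than in the WT libraries of the same treatment, without passing the test (adjusted p between 0.0538 and 0.0864). DESeq2 called both genes in both comparisons (adjusted p = 0.00487 and 0.00109 for Erg without and with cytokines, 0.00104 and 0.000882 for Fli1), and both dKO replicate 2 libraries kept more of them. The dKO replicate 2 libraries also stood apart on the first principal component (57.1% of the variance), at 51.2 and 42.9 against 102.2 and 89.2 for dKO replicate 1 and -85.8 to -57.6 for WT. Member results for dKO are therefore given with and without them, and those for other genes with all 8 libraries. Msn and Rdx aside, each call below in lists of other genes, for dKO against WT or cytokines in dKO, kept its direction without them. Each dKO group is then 1 library and the spread comes from the WT libraries alone, so such fits are read for size only. Leaving out a single library likewise leaves 1 library in its group. The summed level of 10 endothelial markers, all detected at 1 CPM or more in every group, was 9782 and 9437 CPM in untreated WT, 5720 and 5304 in treated WT, 2112 and 3732 in untreated dKO and 1714 and 2679 in treated dKO. Cdh5, the gene of VE-cadherin, which was part of the sort, stood in dKO without cytokines at 12.9% and 46.2% of the WT mean. Leukocyte markers summed to at most 15.7 CPM with Cd3e at 0 throughout and Ptprc at 0 in 7 of 8 libraries. The 15 stellate, pericyte and fibroblast markers summed to between 9221 and 10860 CPM in WT and between 13400 and 19190 CPM in dKO, but most of this was Dcn, at 9024 and 9174 CPM in untreated WT, which did not pass between genotypes. Of the 14 tested markers in this list, 7 rose and 1 fell in dKO without cytokines (median log2 change 2.92, where 13.4% of all tested genes rose and 9.66% fell), and 6 rose and 0 fell with them (1.59, where 18.6% rose and 15.4% fell). Pdgfra, a receptor of mesenchymal cells, stood at 2.07 and 3.67 CPM in untreated and 32.2 and 25.4 in treated WT, and at 933 and 615, then 1174 and 616 CPM in dKO. It rose in dKO 268-fold without cytokines and 31.1-fold with them (adjusted p = 0.00131 and 0.00232), and the collagen gene Col1a2 rose 41.5-fold and 36.8-fold (adjusted p = 0.00147 and 0.00129), calls that held with each library left out in turn. Of the 10 endothelial markers, 5 and 4 fell in the same comparisons (median -1.76 and -1.44) and 0 rose, and of 5 tested cholangiocyte and mesothelial markers 3 rose in both. The cholangiocyte and mesothelial markers summed to 3.32 to 3.97 CPM in WT and 47.3 to 266 CPM in dKO. Most of the dKO sums was Spp1, at 25.6 and 73.0 CPM without and 133 and 244 CPM with cytokines. Krt7, Epcam, Msln and Upk3b of the same list reached at most 0.506 CPM in any library. Markers of these lists moved with genotype beside the members and lists described below, and their part in those results was not tested. In such bulk libraries, fewer cells that express a gene and less of its RNA in each cell cannot be told apart.

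Together the 9 genes took 0.669% and 0.698% of all counts in untreated WT and 2.98% and 2.49% in treated WT, against 0.264% and 0.427% in untreated dKO and 0.805% and 0.901% in treated dKO. Their share was thus higher with cytokines in both genotypes, and lower in each dKO group than in the WT group of the same treatment. Selp alone took 1.17% and 1.10% of the counts in treated WT. Both selectins made up 66.6% and 69.5% of the members' counts in untreated WT but 28.2% and 43.9% in treated dKO, where Vcam1 made up 41.3% and 27.3%.

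**Figure D1:**
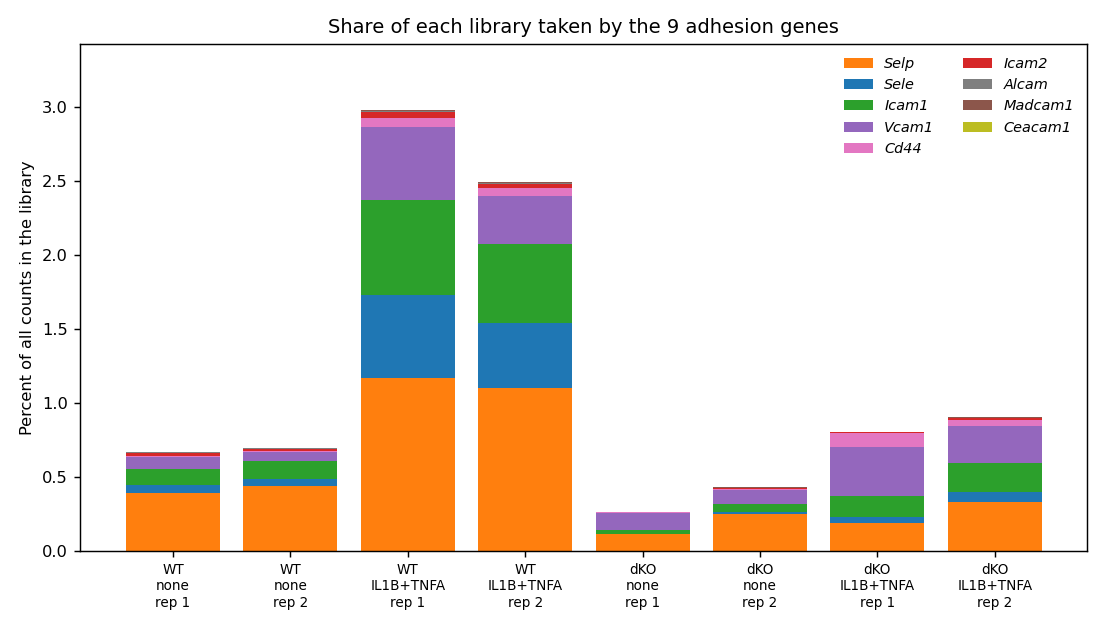
Share of all counts in each library taken by the 9 adhesion genes (y axis, percent, from 0), split by gene, for the 8 libraries in group order. The bars of treated WT reach 2.98% and 2.49%, and the Selp segment is the tallest one in 6 of the 8 bars.

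In WT cells, cytokines raised 6 of the 9 genes (9.72% of all tested genes rose): Sele, Selp, Icam1, Vcam1, Madcam1 and Cd44, 3.16-fold to 11.7-fold. In dKO cells 4 rose (3.50% of all tested genes): Icam1, Vcam1, Cd44 and Alcam, 2.14-fold to 10.6-fold. Without cytokines, Icam1, Alcam and Ceacam1 fell in dKO against WT (3 of 9, where 9.66% of all tested genes fell), and with cytokines Sele, Selp, Icam1, Madcam1 and Alcam fell (5 of 9, 15.4% of all), 2.65-fold to 12.6-fold. Vcam1 and Cd44 were called in neither comparison of genotypes. The median log2 change of the 9 was 2.55 with cytokines in WT (-0.01 over all tested genes), 1.57 in dKO (-0.01), and -1.78 and -1.71 for dKO against WT without and with cytokines (0.02 and 0.01). The 2 comparisons of genotypes use separate libraries, but each shares libraries with the 2 comparisons of cytokines.

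**Figure D2:**
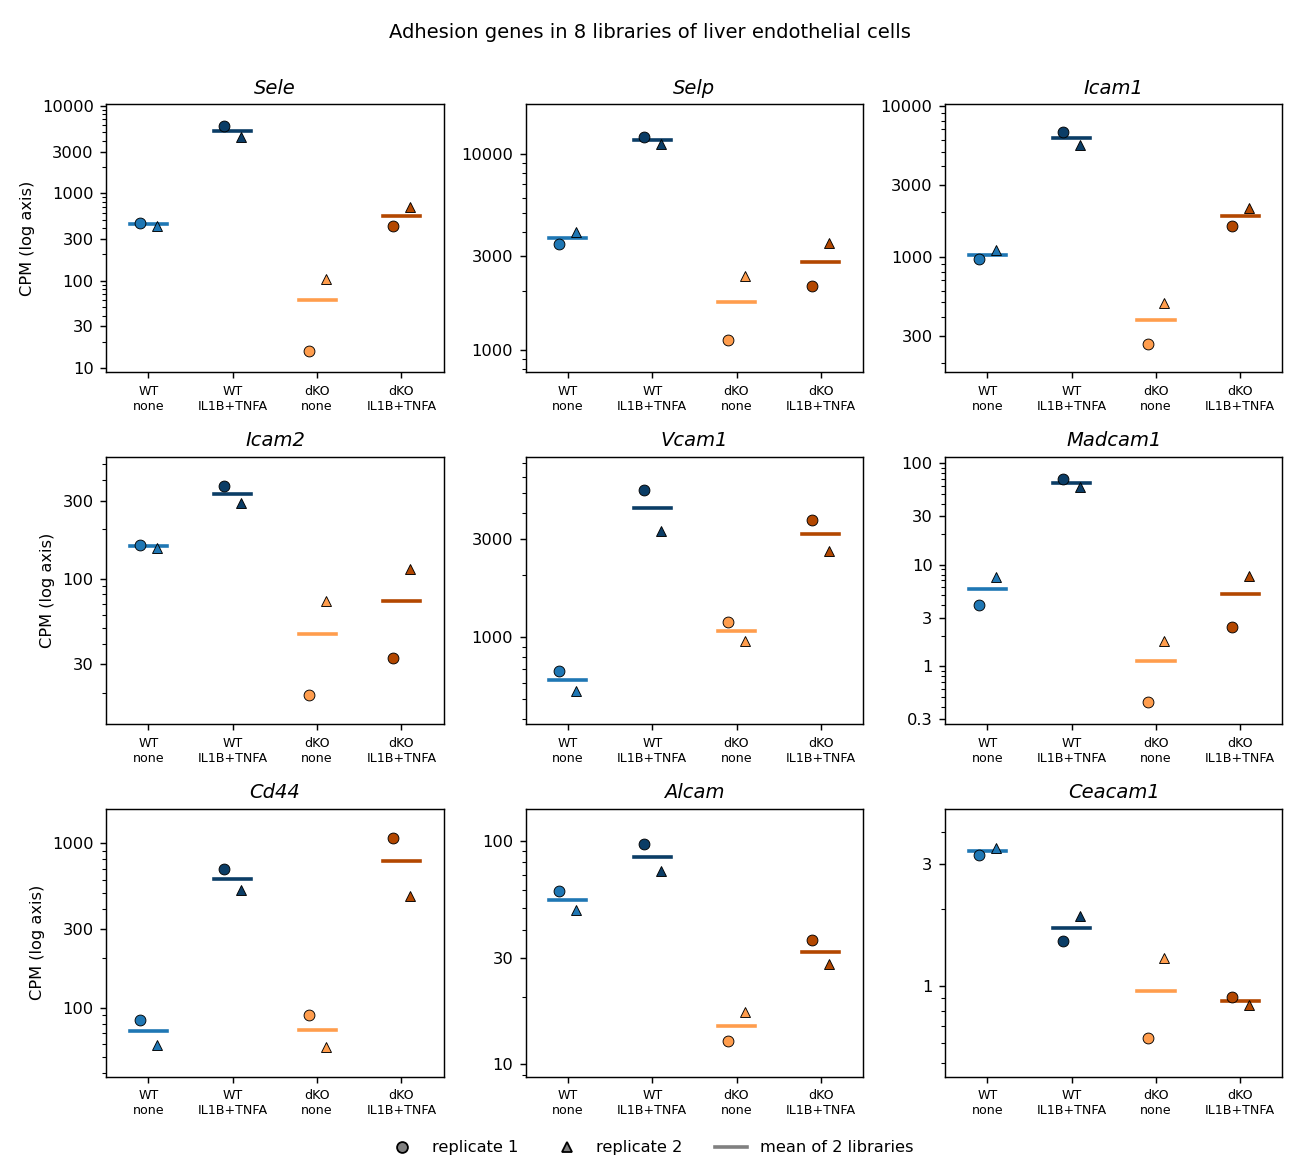
CPM of each of the 9 genes on a log axis in the 8 libraries, grouped by genotype and treatment (IL1B+TNFA or none), with a circle for replicate 1, a triangle for replicate 2 and a line at the mean of the 2 libraries. Sele, Selp, Icam1 and Madcam1 are high in treated WT, Vcam1 and Cd44 are high in both treated groups, and Ceacam1 lies below 4 CPM throughout.

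Sele (ENSMUSG00000026582, GRCm38 chromosome 1, 164048234 to 164057677, plus strand) encodes E-selectin, which endothelium makes on cytokine stimulation. It stood at 461 and 426 CPM in untreated WT, 5952 and 4445 in treated WT, 15.8 and 104 in untreated dKO and 418 and 697 in treated dKO. Treated WT was far above the other 6 libraries, untreated dKO lay below all others, and treated dKO, at 94.1% and 157% of the mean of untreated WT, spanned the untreated WT values. Sele rose with cytokines in WT (log2 change 3.55 ± 0.86, 11.7-fold, adjusted p = 0.0417) and was lower in treated dKO than in treated WT (-3.22 ± 0.85, 9.33-fold, adjusted p = 0.0336). In dKO the value with cytokines was 9.29-fold that without (3.22 ± 0.85, adjusted p = 0.0919), and without cytokines dKO was at -2.89 ± 0.84 against WT (adjusted p = 0.057). DESeq2 called Sele in both of these, with an adjusted p of 0.00238 between the untreated genotypes. Its 2 untreated dKO libraries differed 6.6-fold. Without both dKO replicate 2 libraries, which leaves 1 library in each dKO group, these last 2 comparisons were at 4.73 and -4.83. The treated genotypes then differed by -3.63. Single libraries decided the calls of Sele. Leaving out any 1 of the 4 WT libraries or of the 2 treated dKO libraries put the treated genotype comparison above the threshold (adjusted p from 0.062 to 0.177), as it did the WT response (0.0691 to 0.193), whereas leaving out either untreated dKO library brought the untreated genotype comparison below it (0.0331 and 0.00382), and leaving out dKO replicate 2 did so for the dKO response (0.0115).

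Selp (ENSMUSG00000026580, chromosome 1, 164115264 to 164150026, plus strand) encodes P-selectin, which endothelial cells store in granules and bring to the surface within minutes. Selp stood at 3461 and 3977 CPM in untreated WT, 12253 and 11227 in treated WT, 1127 and 2393 in untreated dKO and 2121 and 3510 in treated dKO. Both treated WT libraries were above all others, and the ranges of untreated and treated dKO overlapped. Selp rose with cytokines in WT (1.66 ± 0.40, 3.16-fold, adjusted p = 0.0355) and was lower in dKO than in WT when both were treated (-2.06 ± 0.40, 4.17-fold, adjusted p = 0.0122). Without cytokines the difference was -1.08 ± 0.39 (adjusted p = 0.0901), and the response in dKO was 0.68 ± 0.39 (adjusted p = 0.357). Without both dKO replicate 2 libraries these were -1.74 and 0.92, and the treated genotypes differed by -2.46. Without untreated dKO replicate 2 alone, the difference without cytokines was -1.72. With all 8 libraries DESeq2 called that difference (adjusted p = 0.0124). The WT response did not pass without any 1 of the 4 WT libraries (adjusted p from 0.113 to 0.186), nor did the treated genotype comparison without replicate 1 of treated WT or of treated dKO (0.0627 and 0.0639). Selp is also expressed by platelets, whose 5 markers summed to 7.75 and 10.1 CPM in untreated WT, 110 and 116 in treated WT, 55.7 and 39.4 in untreated dKO and 115 and 74.5 in treated dKO. Nearly all of this was Pf4 and Itga2b, since Gp1bb, Gp9 and Ppbp reached at most 0.318 CPM, and their part in the result was not tested. Gm16548, a long intergenic RNA gene, and Gm16587, an antisense gene, lie on the opposite strand. They share 9.93% and 4.22% of the exon bases of Selp. With the strand setting not given, their reads, at most 30.5 and 36.5 CPM as counted, cannot be told apart from those of Selp.

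Per kilobase of exon, the ratio of Sele to Selp was 0.202 and 0.163 in untreated WT, 0.736 and 0.600 in treated WT, 0.0212 and 0.0659 in untreated dKO and 0.298 and 0.301 in treated dKO. Sele thus took a larger part relative to Selp with cytokines in both genotypes, and in dKO a smaller one than in the WT group of the same treatment.

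Madcam1 (ENSMUSG00000020310, chromosome 10, 79664559 to 79668537, plus strand) encodes the mucosal addressin, the ligand of the gut-homing integrin α4β7. It stood at 3.99 and 7.58 CPM in untreated WT, 69.3 and 58.8 in treated WT, 0.447 and 1.79 in untreated dKO and 2.45 and 7.73 in treated dKO. Only the treated WT libraries exceeded 10 CPM, and treated dKO covered the range of untreated WT. The gene rose with cytokines in WT (3.47 ± 0.72, 11-fold, adjusted p = 0.0269) and was 12.6-fold lower in treated dKO than in treated WT (-3.65 ± 0.73, adjusted p = 0.0149). The response in dKO was 2.17 ± 0.78 (adjusted p = 0.171), and the untreated genotypes differed by -2.36 ± 0.78 (adjusted p = 0.0765). Without both dKO replicate 2 libraries these were 2.45 and -3.70, and the treated genotypes differed by -4.70. DESeq2 called the difference between the untreated genotypes (adjusted p = 0.0022) and the response in dKO. In untreated dKO the gene rested on 10 and 43 counts. Without any 1 WT library the WT response had adjusted p from 0.095 to 0.154, and the treated genotype comparison did not pass without either treated WT library or treated dKO replicate 1 (0.0568 to 0.0736).

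Icam1 (ENSMUSG00000037405, chromosome 9, 21015985 to 21028817, plus strand) encodes the inducible ligand of the β2 integrins LFA-1 and Mac-1. It stood at 968 and 1111 CPM in untreated WT, 6707 and 5497 in treated WT, 265 and 497 in untreated dKO and 1610 and 2128 in treated dKO. The 4 groups did not overlap, and treated dKO lay above untreated WT, at 155% and 205% of its mean. Icam1 was called in all 4 comparisons between groups. It rose with cytokines in WT (2.55 ± 0.33, 5.87-fold, adjusted p = 0.0061) and in dKO (2.29 ± 0.33, 4.91-fold, adjusted p = 0.0192). Against WT it fell in dKO without cytokines (-1.45 ± 0.32, 2.73-fold, adjusted p = 0.0233) and with them (-1.71 ± 0.32, 3.27-fold, adjusted p = 0.0104). Without both dKO replicate 2 libraries these 4 changes were 2.53, 2.61, -1.99 and -1.91, in the same order. Single libraries ended calls. Without either untreated WT library, both cytokine responses and the untreated genotype comparison were above the threshold (adjusted p from 0.0525 to 0.112), as was the latter without untreated dKO replicate 1 (0.0558), the dKO response without treated dKO replicate 1 (0.0532), and the treated comparison without replicate 1 of treated WT (0.0625) or of treated dKO (0.0635). Gm47079, an antisense gene over 11.7% of its exon bases, reached at most 0.446 CPM.

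Icam2 (ENSMUSG00000001029, chromosome 11, 106377656 to 106388075, minus strand) encodes the constitutive endothelial ligand of LFA-1. It stood at 161 and 155 CPM in untreated WT, 370 and 290 in treated WT, 19.3 and 72.6 in untreated dKO and 32.7 and 114 in treated dKO. All 4 dKO libraries were below all 4 WT libraries, and in dKO the replicates lay further apart than the treatments. Icam2 was not called in any comparison, though DESeq2 called it between the treated genotypes (adjusted p = 0.0254). Its log2 differences between dKO and WT were -1.78 ± 0.77 without (adjusted p = 0.142) and -2.17 ± 0.78 with cytokines (adjusted p = 0.0768), and its responses 1.06 ± 0.75 in WT (adjusted p = 0.381) and 0.67 ± 0.75 in dKO (adjusted p = 0.657). Without both dKO replicate 2 libraries the differences between genotypes were -3.05 and -3.33, and the dKO response was 0.76. The WT response was then 1.04 ± 0.13, its smaller error coming with the spread of the dKO replicates left out. Leaving out untreated dKO replicate 2 alone brought the treated genotype comparison to an adjusted p of 0.0486. Per kilobase, the ratio of Icam1 to Icam2 was 2.63 and 3.13 in untreated WT and 7.92 and 8.28 in treated WT, and in dKO 5.99 and 2.99 without and 21.5 and 8.17 with cytokines.

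Vcam1 (ENSMUSG00000027962, chromosome 3, 116109949 to 116129688, minus strand) encodes the ligand of the integrin α4β1 on lymphocytes and monocytes. It stood at 686 and 548 CPM in untreated WT, 5184 and 3291 in treated WT, 1180 and 953 in untreated dKO and 3724 and 2612 in treated dKO. Untreated dKO lay above untreated WT, at 191% and 154% of its mean, whereas the treated groups overlapped. Vcam1 rose with cytokines in WT (2.78 ± 0.30, 6.87-fold, adjusted p = 0.0039) and in dKO (1.57 ± 0.29, 2.97-fold, adjusted p = 0.0338). Between genotypes it differed by 0.79 ± 0.28 without (adjusted p = 0.0878) and -0.42 ± 0.28 with cytokines (adjusted p = 0.280). The former passed with DESeq2 (adjusted p = 0.028), and without both dKO replicate 2 libraries the 2 differences were 0.92 and -0.18. The WT response passed with each of the 8 libraries left out in turn (adjusted p at most 0.0422). That in dKO was 1.66 without both dKO replicate 2 libraries. Its call was lost without either untreated WT library, either untreated dKO library or treated dKO replicate 1.

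Vcam1 also changed place relative to Icam1. Per kilobase of exon, the ratio of Vcam1 to Icam1 was 0.348 and 0.243 in untreated WT and 0.380 and 0.294 in treated WT, against 2.19 and 0.942 in untreated dKO and 1.14 and 0.603 in treated dKO. All 4 dKO values were above all 4 WT values. With the longest transcript as the length, the ratios were 0.440, 0.306, 0.479 and 0.371 in WT and 2.77, 1.19, 1.43 and 0.761 in dKO, in the same order.

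Cd44 (ENSMUSG00000005087, chromosome 2, 102811141 to 102901665, minus strand) encodes the hyaluronan receptor and a selectin ligand, on many cell types. It stood at 84.2 and 59.4 CPM in untreated WT, 693 and 516 in treated WT, 89.7 and 57.2 in untreated dKO and 1072 and 479 in treated dKO. The untreated groups overlapped, as did the treated groups, and every treated library was above every untreated one. Cd44 rose 8.42-fold with cytokines in WT (3.07 ± 0.46, adjusted p = 0.0111) and 10.6-fold in dKO (3.4 ± 0.47, adjusted p = 0.0207). Between genotypes it differed by 0.03 ± 0.43 (adjusted p = 0.961) without and 0.36 ± 0.43 (adjusted p = 0.539) with cytokines. Without both dKO replicate 2 libraries these were 0.30 and 0.83, and the response in dKO was 3.58. The WT response had adjusted p of 0.0723 and 0.0846 without either untreated WT library and 0.0637 without treated WT replicate 1, and that in dKO 0.0546 and 0.0548 without either untreated WT library and 0.0857 and 0.0663 without either untreated dKO library.

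Alcam (ENSMUSG00000022636, chromosome 16, 52248996 to 52454074, minus strand) encodes CD166, a ligand of CD6 and of itself. It stood at 59.4 and 49.1 CPM in untreated WT, 96.2 and 73.2 in treated WT, 12.7 and 17.1 in untreated dKO and 35.8 and 28.0 in treated dKO. The 4 groups did not overlap, in the order untreated dKO, treated dKO, untreated WT, treated WT. Alcam fell in dKO 3.64-fold without cytokines (-1.86 ± 0.22, adjusted p = 0.00485) and 2.65-fold with them (-1.41 ± 0.22, adjusted p = 0.0064). Both calls held with each of the 8 libraries left out in turn. Without both dKO replicate 2 libraries these differences were -2.11 and -1.23. Alcam rose 2.14-fold in dKO with cytokines (1.10 ± 0.22, adjusted p = 0.043), a call lost without any 1 of the 8 libraries. Without both dKO replicate 2 libraries this rise was 1.50. The response in WT was 0.64 ± 0.22 (adjusted p = 0.0903).

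Ceacam1 (ENSMUSG00000074272, chromosome 7, 25461707 to 25477603, minus strand) encodes a homophilic adhesion molecule with an inhibitory cytoplasmic tail. It stood at 3.25 and 3.47 CPM in untreated WT, 1.5 and 1.88 in treated WT, 0.626 and 1.29 in untreated dKO and 0.909 and 0.839 in treated dKO, on 14 to 103 counts a library. The WT libraries were all above the dKO libraries, and in WT the treated libraries were the lower ones, unlike for the other 8 genes. Ceacam1 fell in dKO without cytokines (-1.80 ± 0.39, 3.49-fold, adjusted p = 0.0223), and without both dKO replicate 2 libraries the difference was -2.43. With cytokines the difference was -0.95 ± 0.39 (adjusted p = 0.104), and the responses were -0.99 ± 0.37 in WT (adjusted p = 0.119) and -0.14 ± 0.40 in dKO (adjusted p = 0.884). Without both dKO replicate 2 libraries the treated difference was -0.89 and the response in dKO 0.54. The untreated call was lost without either untreated WT library (adjusted p = 0.0969 and 0.105) or untreated dKO replicate 1 (0.0827). Ceacam2, a close paralog nearby, had 0 to 9 counts a library. How reads that fit both genes were counted is not given, and their part in these values was not tested.

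Compared per kilobase of exon, Selp had the highest level of the 9 in every group, at 843 ± 82.6 (SD, n = 2) CPM per kilobase in untreated WT and 2660 ± 165 in treated WT, and Ceacam1 the lowest. In treated WT the next were Sele at 1785 ± 366 and Icam1 at 1400 ± 196, an order that turns with the longest transcript as the length, where Icam1 stood at 2408 ± 337. Vcam1 followed at 478 ± 151, Icam2 at 173 ± 29.6, Cd44 at 89.2 ± 18.4, Madcam1 at 44.6 ± 5.18 and Alcam at 11.9 ± 2.29. In untreated dKO Vcam1 came after Selp, at 120 ± 18.1, and then Icam1, at 87.4 ± 37.8, with spreads that overlapped. With the longest transcript as the length, Vcam1 and Icam1 stood at 261 ± 39.2 and 150 ± 64.9 there, in the same order. Sele stood at 20.6 ± 21.4 against Icam2 at 24.1 ± 19.8 in untreated dKO. Among all tested genes, Selp ranked 5 to 6 and Sele 11 to 14 in treated WT, while in untreated dKO Selp ranked 48 to 138 and Sele 1280 to 6879.

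Groups also separated for genes that were not called. With cytokines in WT, 8 of the 9 genes had both treated libraries above both untreated ones, where 34.3% of all tested genes did, and Ceacam1 had them below (33.9% of all). In dKO this held for 6, all but Selp, Icam2 and Ceacam1 (24.7% of all). Both dKO libraries were below both WT libraries for 7 genes without (34.1% of all) and the same 7 with cytokines (36.2% of all), Vcam1 and Cd44 being the others, and only Vcam1, without cytokines, lay above (35.9% of all). With 2 libraries against 2, such separation is weak evidence for any 1 gene.

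**Figure D3:**
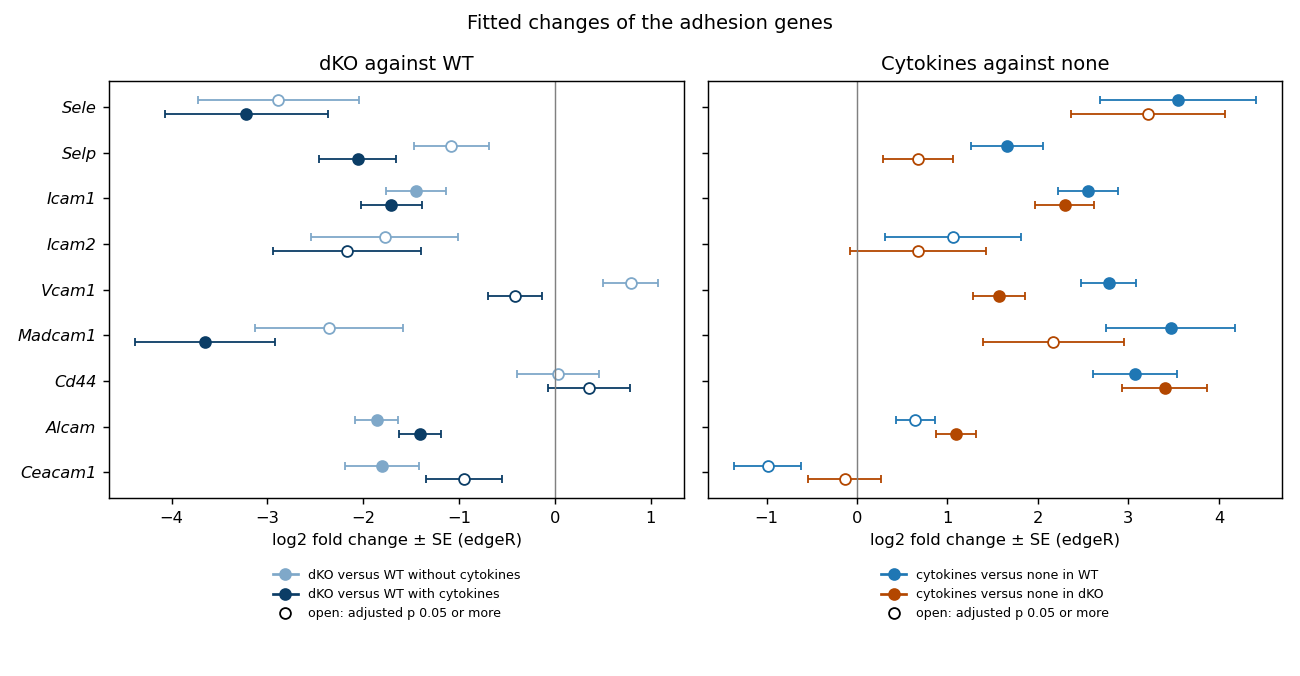
Log2 change of each of the 9 genes in 4 comparisons, with bars of 1 standard error from edgeR and filled points where the adjusted p was below 0.05. With cytokines in WT the called genes lie between 1.66 and 3.55, and for dKO against WT with cytokines between -3.65 and -1.41.

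The difference between the cytokine responses of the 2 genotypes was tested as an interaction. With edgeR 0 of the 9 genes passed, as did 0% of the 15698 tested. An unadjusted p under 0.05 was found for 1683 of the 15698 tested genes and for 1 of the 9, Vcam1 (-1.21 ± 0.40, adjusted p = 0.368). The response of Vcam1 was 2.78 in WT and 1.57 in dKO. Madcam1 was at -1.30 ± 1.03 (adjusted p = 0.726) and Selp at -0.98 ± 0.55 (adjusted p = 0.597). DESeq2 called 383 genes and 0 of the 9. On simulated data this edgeR test recovered 2% of genes whose responses differed by 1 on the log2 scale and 88% of those that differed by 3. The simulation gave every gene the same common spread and no difference between the dKO replicates. Standard errors of the members reached 1.11 here (Sele), so these shares need not hold for them. That a gene passed with cytokines in one genotype and not in the other, as Sele, Selp, Madcam1 and Alcam did, was not shown by these 2 fits to be a difference between genotypes.

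The 2 dKO replicates differed in how far the members departed from WT. In untreated dKO, 7 of the 9 genes were higher in replicate 2, all but Vcam1 and Cd44, with a median ratio of replicate 2 to replicate 1 of 2.06 against 0.99 over all tested genes. In treated dKO 5 of 9 were higher, with a median of 1.32 against 1.0. Icam2 stood at 12.2% and 46.0% of the WT mean in untreated dKO and at 9.92% and 34.5% in treated dKO. For Erg these were 21% and 47.8%, then 17.0% and 44.1%, for Fli1 13.0% and 36.9%, then 13.1% and 37.5%, and for Cdh5 12.9% and 46.2%, then 20.5% and 42.4%. For Selp they were 30.3% and 64.3%, then 18.1% and 29.9%. Cd44 was at 125% and 79.7% in untreated and 177% and 79.3% in treated dKO, so that replicate 1 was the higher one. The part of residual target RNA or of marker levels in these differences was not tested.

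**Figure D4:**
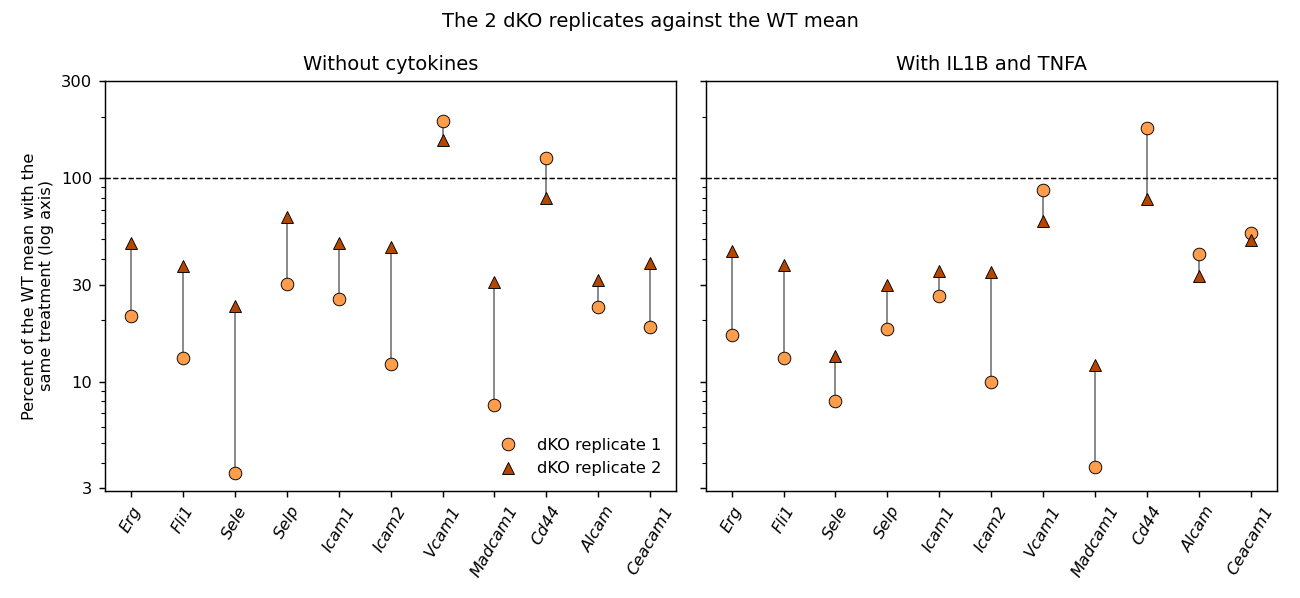
Level of each adhesion gene, with Erg and Fli1 for comparison, in the 2 dKO replicates as a percentage of the WT mean of the same treatment (log axis, line at 100%), with 1 panel for each treatment. Sele, Icam2 and Madcam1 lie further below 100% in replicate 1, whereas Vcam1 and Cd44 lie higher in replicate 1 than in replicate 2.

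Over the 8 libraries, log2 CPM of Sele and Icam1 had a Pearson r of 0.98, Selp and Madcam1 of 0.99 and Vcam1 and Cd44 of 0.95, while that of Vcam1 and Icam2 was 0.20, of Icam2 and Cd44 0.19 and of Vcam1 and Ceacam1 -0.48. Genes nearest in pattern among 9926 with at least 10 CPM in a group were Pvr (r 0.997), Gpr84 and Armcx3 for Sele, Mybbp1a (0.997), Kpnb1 and Nop14 for Selp, and Gbp9 (0.998), Tuba1a and Nfkb1 for Icam1. They were Myadm (0.998) and Gimap5 for Icam2, Tubgcp4 (0.993), Agrn and Vcan for Vcam1, and Gnai2 (0.998) for Madcam1. For Cd44 they were Sqle (0.994) and Hmgcs1, both of sterol synthesis, for Alcam Mtmr12 (0.991) and for Ceacam1 Pwwp2a (0.993). These values describe 8 libraries in 4 groups, which the genes share, and carry no test.

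Other genes of the adhesion cascade were counted by list. Of 24 tested endothelial partners of capture and crossing, 2 rose and 3 fell in dKO without cytokines (13.4% and 9.66% of all tested genes), and 3 rose and 5 fell with them (18.6% and 15.4%). Ezr, the gene of the membrane linker ezrin, stood at 14.2 and 10.3 CPM in treated WT and 167 and 62.9 in treated dKO and rose 9.35-fold (adjusted p = 0.00621). Msn and Rdx, genes of the linkers moesin and radixin, fell there 2.4-fold and 1.41-fold (adjusted p = 0.00897 and 0.0483). Msn stood at 1726 and 1476 CPM in treated WT and at 555 and 770 in treated dKO. Fits with libraries left out are not reported here for these 2 genes. Esam, a junction protein in neutrophil crossing, stood at 610 and 616 CPM in untreated WT and 144 and 212 in untreated dKO and fell 3.44-fold (adjusted p = 0.0043), a call kept with each library left out in turn. Pecam1, the gene of the sorted CD31, fell 3.47-fold there (adjusted p = 0.0293), with 1607 and 1560 CPM in WT and 277 and 636 in dKO, a call that did not pass without any 1 WT library or untreated dKO replicate 1 (adjusted p up to 0.113). With cytokines 2 of the 24 rose and 0 fell in WT (9.72% and 7.69% of all), and 0 did either in dKO (3.50% and 2.06% of all). In dKO 7 of the 24 had an unadjusted p under 0.05 in edgeR's test, as did 3672 of the 15698 tested genes. Icam5, next to Icam1, stood at 0.222 and 0.202 CPM in untreated WT and 6.09 and 1.77 in treated WT (adjusted p = 0.0192, or up to 0.126 without either untreated WT library or treated WT replicate 1). Icam4, between them on the chromosome, had 0 counts in every library.

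Selectin ligands are made by glycosyltransferases and tyrosine sulfotransferases. Of 10 tested genes of this list, 4 rose and 2 fell in dKO without cytokines, and 4 rose and 3 fell with them, where 13.4% and 9.66%, then 18.6% and 15.4%, of all tested genes did. Gcnt4, a core-2 enzyme of low level, stood at 0.148 and 0.0674 CPM in untreated WT and 6.57 and 2.29 in untreated dKO, a 39.8-fold rise (adjusted p = 0.00926, or up to 0.0753 without either untreated WT library), and rose 23.8-fold with cytokines (adjusted p = 0.00882, or 0.0655 without treated WT replicate 1). Gcnt1, which builds the core-2 branch, stood at 56.8 and 49.7 CPM in untreated WT and 443 and 262 in untreated dKO, a 6.62-fold rise (adjusted p = 0.0032), and rose 4.05-fold in the treated comparison (adjusted p = 0.00445). Tpst1, a sulfotransferase, rose 2.68-fold and 2.36-fold (adjusted p = 0.00112 and 0.00116). St3gal4, a sialyltransferase, fell 1.70-fold in treated dKO (adjusted p = 0.00351). These calls of Gcnt1, Tpst1 and St3gal4 held with each of the 8 libraries left out in turn. Selplg, the gene of the selectin ligand PSGL-1, had 0 counts in every library. Of 7 tested leukocyte counter-receptors, 0 passed in dKO without cytokines (13.4% of all tested genes rose and 9.66% fell). There 1 of the 7 had an unadjusted p under 0.05 in edgeR's test, as did 6284 of the 15698 tested genes. With cytokines Itgb2 rose and 1 of the 7 fell (18.6% and 15.4% of all). Itgb2, the β2 integrin chain of leukocytes, stood at 0.485 and 0.510 CPM in treated WT and 5.54 and 1.86 in treated dKO (7.36-fold, adjusted p = 0.0288, or up to 0.138 without any 1 WT library or treated dKO replicate 1).

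Sheddases and their inhibitors set how long some adhesion molecules stay on the cell. Of 8 tested, 3 rose and 0 fell in dKO without cytokines (13.4% and 9.66% of all tested genes) and 3 rose and 1 fell with them (18.6% and 15.4%), while 4 rose and 1 fell with cytokines in WT (9.72% and 7.69%) and 3 rose and 1 fell in dKO (3.50% and 2.06%). Mmp14, a membrane metalloproteinase that cleaves CD44, stood at 487 and 565 CPM in treated WT and 1362 and 1015 in treated dKO, 2.26-fold higher (adjusted p = 0.00562). Timp3, an inhibitor of such enzymes, stood at 11 and 15.4 CPM in treated WT and 49.3 and 85.6 in treated dKO, 5.09-fold higher (adjusted p = 0.00637). Both calls held with each library left out in turn.

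Of 21 cytokine receptors and transcription factors upstream of the members, 9 rose and 1 fell with cytokines in WT (9.72% and 7.69% of all tested genes), and 10 rose and 0 fell in dKO (3.50% and 2.06%). Tnfaip3, an NF-κB target that damps the pathway, stood at 53.9 and 46.4 CPM in untreated and 928 and 675 in treated WT, and at 91.6 and 65.5 and then 665 and 416 in dKO. It rose 16.0-fold in WT (adjusted p = 0.00223) and 6.89-fold in dKO (adjusted p = 0.0105), with each library left out in turn also. Between genotypes, 3 of the 21 rose and 4 fell without cytokines (13.4% and 9.66% of all), and 2 rose and 7 fell with them (18.6% and 15.4%). Tnfrsf1b, the second TNF receptor, was 3.30-fold higher in treated dKO (131 to 186 CPM against 44.3 and 52.0 in treated WT, adjusted p = 0.00589). Nfkb1, the gene of the p50 precursor, fell 1.59-fold there (279 and 311 against 495 and 444 CPM, adjusted p = 0.0123), and Rela, the gene of p65, 1.5-fold (154 and 186 against 276 and 233 CPM, adjusted p = 0.0206). Both of the latter calls were lost without replicate 1 of treated WT or of treated dKO (adjusted p up to 0.0821 and 0.122).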

How the data were processed

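The deposited table held raw read counts per Ensembl gene for 8 libraries, which are whole numbers; no normalization by the authors was apparent. The genome build GRCm38, STAR 2.7.6a and FastQC 0.11.5 are named per the submitters' processing notes. How reads were counted, on which annotation and with which strand setting is not given in the sources used here, and the labels name an unstranded and a stranded kit without saying which library had which. Symbols, coordinates (from 1) and exon lengths are from GENCODE M21, and 52403 of 52636 identifiers had a symbol.

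In R 4.3.3, edgeR 4.0.16 (filterByExpr, TMM, robust quasi-likelihood) was fitted to all libraries with the 4 groups as coefficients (4 residual degrees of freedom, common biological coefficient of variation 24.3%). Each of 5 contrasts was tested two-sided and adjusted by Benjamini-Hochberg over 15698 genes (threshold 0.05). Nothing says that the libraries of a group are separate animals or cultures, so p-values measure the spread between these samples only. On simulated data for the comparison of untreated genotypes (15698 genes), 98% of genes changed by 3 on the log2 scale and 15% of those changed by 1 were recovered, and for the interaction 88% and 2%. Alternatives were other scalings, no filter, DESeq2 1.42.0, replicate blocks, leaving out libraries, and fits of 4 libraries.

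The members and the lists of other genes were chosen with earlier results of these data known. Named genes were the 9 members, Erg and Fli1, the genes of largest called change in each list and contrast (or, with none called, the one of highest mean CPM), and the 3 genes most like each member. Nfkb1 and St3gal4 between genotypes, Rela, Rdx, Cdh5, Dcn, Icam4, Selplg, Ceacam2 and single markers fall outside that rule. They were chosen after their values were seen. Some listed genes, and some that this rule picks, are not reported here.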

Additional observations from a re-analysis of the deposited data

How the results depend on the processing

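There were 2 libraries a group, with totals of 23009062 counts or more, and Ceacam1 throughout and Madcam1 in dKO rest on few counts. RLE size factors and upper-quartile scaling gave the same counts of called members as TMM (3 and 5 for dKO against WT without and with cytokines, 6 and 4 for cytokines in WT and dKO, 0 for the interaction). Of 693 member results under alternatives, 572 kept their direction and side of the threshold, 72 fell short of it, 34 newly passed it and 15 changed sign.

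For dKO against WT without cytokines, called members numbered 7 with DESeq2, 7 without both dKO replicate 2 libraries, 6 with the replicate block and 1 with only the 4 libraries compared. With no filter on low counts they numbered 3 for dKO against WT with cytokines and 3 for cytokines in WT. For cytokines in dKO they numbered 0 with only the 4 libraries compared. Leaving out each library in turn gave 1 to 5 and 1 to 6 called members for dKO against WT without and with cytokines, 1 to 6 and 0 to 3 for cytokines in WT and in dKO, and 0 to 0 for the interaction. A group left with 1 library was assumed to vary like the others. The members called whichever library was left out were Alcam in both comparisons of genotypes and Vcam1 with cytokines in WT. The causes of these shifts were not tested.

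The labels do not say that a replicate number marks a shared source. Deviations from the group means correlated across genes at r = 0.434 between the WT groups and 0.689 between the dKO groups, and at 0.017 to 0.134 across genotypes, which is a hint from the data of pairing within a genotype. With a replicate block within genotype, 9 members were called for cytokines in WT, 8 for cytokines in dKO, and 2 for the interaction, Vcam1 (-1.20, adjusted p = 0.0108) and Selp (-0.93, adjusted p = 0.0363). That block could not be fitted for the comparisons of genotypes. The replicate block over all libraries called 5, 5, 4 and 0 members in the remaining comparisons, Fli1 in both comparisons of genotypes (adjusted p = 0.0316 and 0.0258) and Erg with cytokines (0.0332).

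The sign changes were all in values that had not passed. Ranges below are over single libraries left out. In the interaction, Sele (-1.11 to 1.59) moved from -0.33 to 0.14 with the block within genotype, to 1.59 with untreated dKO replicate 2 left out and to 1.20 with both dKO replicate 2 libraries left out. Icam1 (-0.63 to 0.27) moved to 0.27 and 0.07 in the latter 2 fits, Icam2 (-1.54 to 0.86) to 0.86 without untreated dKO replicate 2 and 0.23 without treated dKO replicate 1, Madcam1 (-2.33 to 0.03) to 0.03 without untreated dKO replicate 2 and Cd44 (-0.37 to 0.82) to -0.37 without treated dKO replicate 1. For dKO against WT, Cd44 (-0.34 to 0.32) moved to -0.20 without untreated WT replicate 2 and to -0.34 without untreated dKO replicate 1, and with cytokines (-0.34 to 0.83) to -0.34 without treated dKO replicate 1. With cytokines in dKO, Icam2 (-0.49 to 1.92) moved to -0.49 without treated dKO replicate 2, and Ceacam1 (-0.56 to 0.48) to 0.48 with untreated dKO replicate 2 left out and 0.54 with both dKO replicate 2 libraries left out.

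Over all tested genes, called genes for dKO against WT without cytokines numbered 3617, but 2266 with only the 4 libraries, 5602 without both dKO replicate 2 libraries and 527 to 3783 with a library left out, and with cytokines 5343 and 1621 to 5523. For cytokines in WT they numbered 2733 (1526 higher, 1207 lower, against 1233 and 1477 with upper-quartile scaling), 4585 with only the 4 libraries, 4417 without both dKO replicate 2 libraries, 5943 with the block within genotype and 413 to 2749 with a library left out. For cytokines in dKO they numbered 872, 1852 with DESeq2, 1351 with the replicate block, 3769 with that within genotype, 1339 without both dKO replicate 2 libraries, 1 with only the 4 libraries and 130 to 731 with a library left out. For the interaction they numbered 0, 75 with no filter, 383 with DESeq2, 947 with the block within genotype, 193 without both dKO replicate 2 libraries and 0 to 41 with a library left out.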
